A study of Saccharomyces cerevisiae with 25 samples.

Results

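Budding yeast 180 to 210 min after the move to medium without phosphate were compared with the same culture at 120 to 165 min. The comparison takes 3 libraries (180, 195 and 210 min) against 4 (120, 135, 150 and 165 min), which is 7 of the 25 libraries of the series. All 25 are RNA-seq libraries of Saccharomyces cerevisiae, strain background BY4741, with the genotype pho84pr-YFP, delta-vip1, meaning YFP driven by the PHO84 promoter and a labelled deletion of VIP1, an inositol pyrophosphate kinase gene. Cells grown in high phosphate gave the 0 min library, and after a wash and transfer 24 libraries were taken at steps of 15 min up to 360 min. Every time has 1 library, so consecutive times stand in for replicates. The spread in each test therefore includes any drift within a window, and p-values measure the spread between these libraries, not between cultures. The libraries carry no wild-type partner here, and no measure of growth is used. Of 5718 genes with a value, 4742 were listed in all 7 libraries and were tested, and 916 were listed in some of the 7.

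Yeast cells that run out of phosphate first induce the PHO genes, which encode phosphatases, phosphate transporters and polyphosphate enzymes under the transcription factor Pho4. Making ribosomes takes up a large part of a growing cell's transcription, and rRNA itself holds much of the cell's phosphorus. Ribosomal protein genes, and the separate ribosome biogenesis genes for assembly factors and RNA polymerases I and III, are lowered when nutrients or the TOR and protein kinase A pathways fall, while stress and reserve carbohydrate genes under Msn2 and Msn4 are raised.

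The 7 libraries held 678064 (210 min) to 4162690 (165 min) reads, read back from how the low values are spaced, and a gene is listed only from 10 reads upward. That floor equals 14.7 RPM (the reads of a gene for every 1000000 reads of its library) at 210 min and 2.40 RPM at 165 min. VIP1, the gene labelled deleted, still had 10 to 105 reads in each of the 7 libraries (up to 28.3 RPM), which goes against an absence of its whole transcript, and the labels do not state which stretch was deleted. Of the genes that BY4741 lacks, HIS3, LEU2 and MET17 were listed in none of the 7, URA3 was listed at 120 and 165 min only, and the mating type a genes MFA1, MFA2, STE2 and BAR1 were listed in all 7. Of the genes of the other mating type, STE3 was listed in all 7, at 18.7 to 54.6 RPM. SAG1 was listed in all but the 135 and 210 min libraries, at up to 12.3 RPM. MF(ALPHA)1 was listed at 150 and 165 min only, and MF(ALPHA)2 in none of the 7.

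Between the windows transcripts for making ribosomes fell and those for carbohydrate reserves and stress defence rose. Ribosome biogenesis genes had a median log2 change of -0.89 and ribosomal protein genes of -0.87, while general stress genes stood at 1.12 and trehalose and glycogen genes at 1.08. The median of all genes tested was 0.18. In RNA of a whole culture, fewer cells that express a gene and less of its RNA per cell cannot be told apart. Of 4742 genes 364 rose, which is 7.68%, and 310 fell, which is 6.54%. Genes were called to rise or fall when limma, run on the deposited log2 values, gave a Benjamini-Hochberg adjusted p under 0.05 over all genes tested and the log2 change was at least 0.58 in size.

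Ribosomal protein genes held 34.5, 31.7, 31.1 and 28.4% of all reads in the libraries of 120, 135, 150 and 165 min, and 25.8, 20.6 and 12.1% in those of 180, 195 and 210 min. Because RPM are shares of a library, a fall of this size raises every other gene. Each library was therefore also scaled so that the reads of genes other than the cytosolic ribosomal protein genes summed to 1000000. On that scale 136 genes rose, which is 2.87%, and 442 fell, which is 9.32%, and the median of all genes was -0.05. All 136 of these rises and 309 of the falls (6.52% of the genes tested) were called on both scales, and these are the changes the text leans on. Windows did not overlap for 20.2% of all genes upward and 9.49% downward as deposited, and for 8.27% and 17.1% scaled. Values below are as deposited unless they are called scaled.

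The calls depend on single libraries. By limma no gene passed without the 120, 135, 150 or 195 min library, with lowest adjusted p-values of 0.0808, 0.0649, 0.0503 and 0.0946. Without the 165 min library 151 rose and 94 fell, and without the 210 min library 118 rose and 149 fell. Without the 180 min library, which lies nearest to the earlier window, 779 rose and 463 fell. At an unadjusted p under 0.05, 1665 genes passed with all 7 libraries. All 674 called genes kept their direction in each of these 7 fits, and between 470 (without 210 min) and 669 (without 180 min) of them kept a change of at least 0.58. The ribosomal protein median was -0.53 without the 210 min library. For a single gene an exact permutation test of 3 against 4 libraries cannot go below p = 0.0571.

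**Figure D1:**
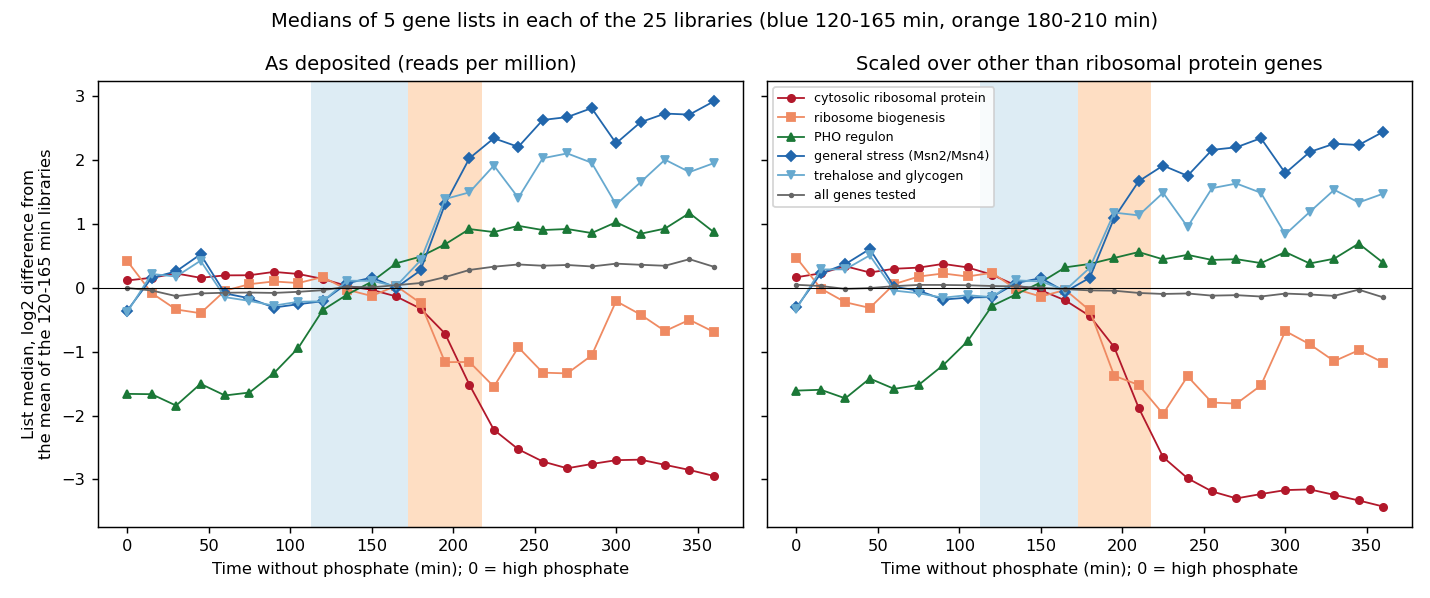
Median log2 difference of 5 gene lists and of all genes tested from their own mean over the 120 to 165 min libraries (y axis), in each of the 25 libraries by minutes without phosphate (x axis), as deposited on the left and scaled on the right; blue and orange bands mark the compared windows. The stress list moved from 0.27 at 180 min to 2.02 at 210 min and the ribosomal protein list from -0.33 to -1.52, as deposited.

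The change was small in size at 180 min and large at 195 and 210 min. Even so, 591 of the 674 called genes lay outside their earlier values from 180 min on, a pattern that the call itself favours. Among 3207 genes with a median of at least 50 reads, the number at least 1 log2 unit from their mean in the 120 to 165 min libraries was 5 higher and 2 lower at 180 min. At 195 min it was 121 higher and 159 lower, and at 210 min 242 higher and 291 lower. Each library of the earlier window, set against the other 3 of that window, gave at most 5 such genes in a direction. The median absolute difference of these genes was 0.125 to 0.16 within the earlier window and 0.191, 0.33 and 0.439 at 180, 195 and 210 min.

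The lists below were written from general knowledge of yeast, with earlier results of these data known. They hold genes by what they do, and each is set against the shares and the median for all genes given above. The number of tested members goes with each list, since members under the floor in any of the 7 libraries were not tested. Counts over tested members are descriptions of these libraries.

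**Figure D2:**
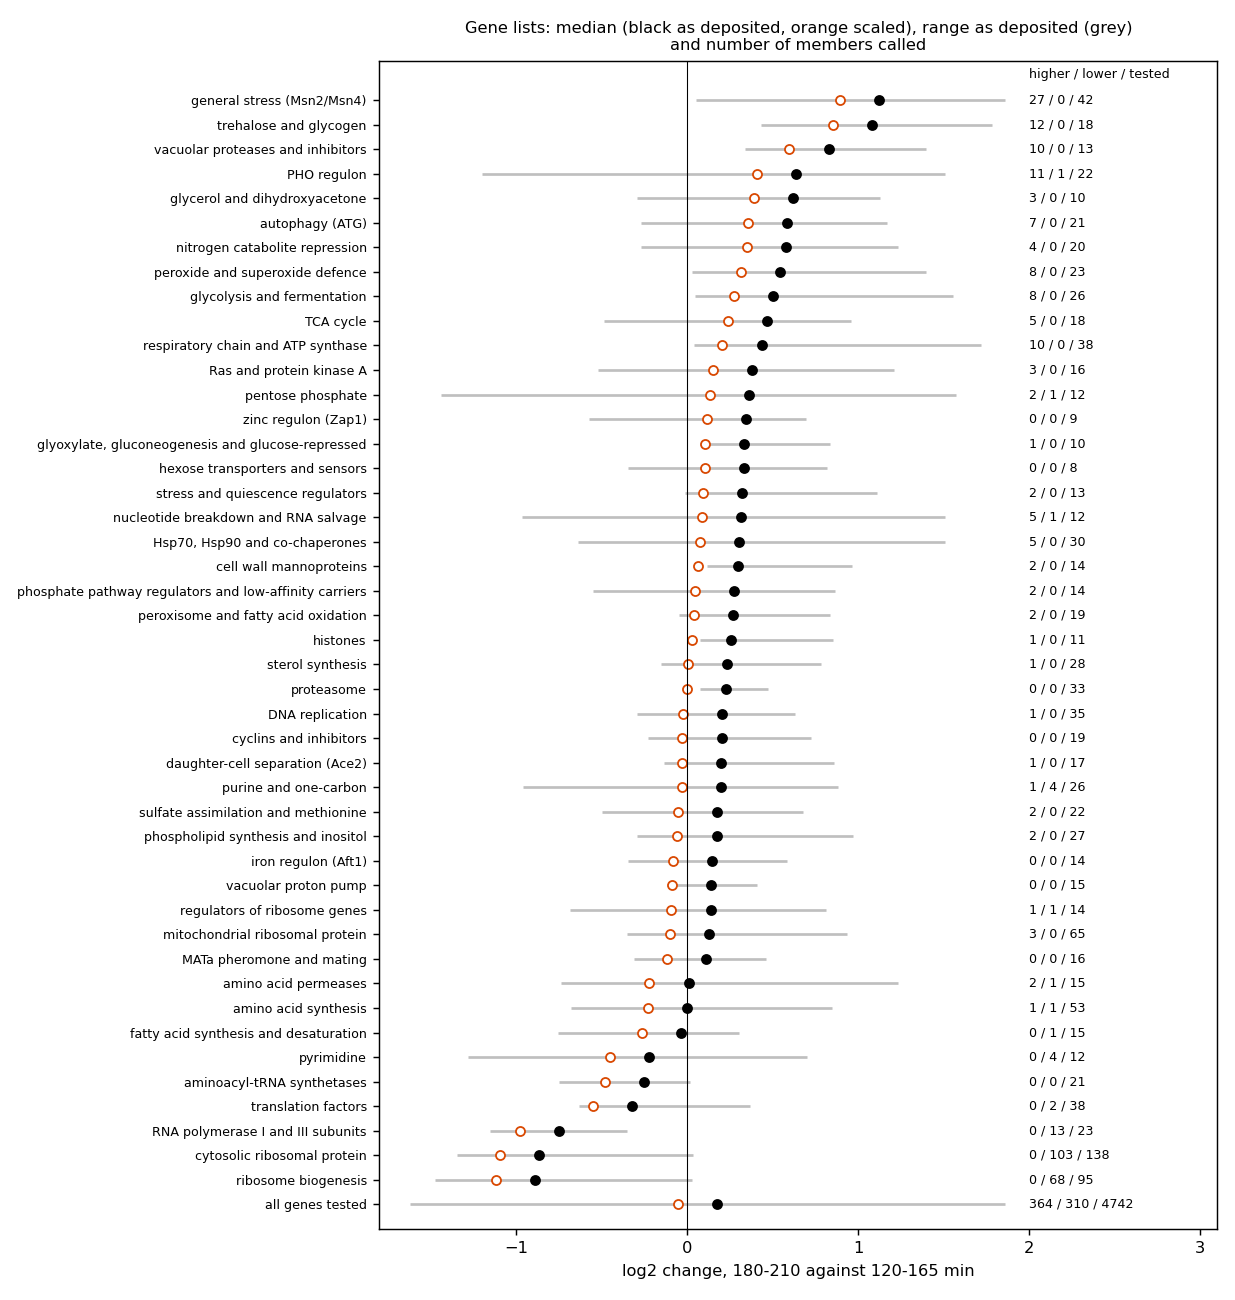
Median log2 change of each gene list with at least 8 tested members, 180 to 210 against 120 to 165 min (x axis; black as deposited, orange scaled), with the range of its members as deposited in grey and, at the right, how many members were called higher, called lower and tested. The lists with the lowest medians are those of ribosome biogenesis (-0.89), cytosolic ribosomal proteins (-0.87) and RNA polymerases I and III (-0.75), and those with the highest are general stress (1.12) and trehalose and glycogen (1.08).

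Ribosome biogenesis genes encode the factors that process rRNA and assemble both ribosomal subunits. Of 99 in the list 95 were tested, and 68 fell as deposited and 79 scaled, where the median was -1.12. Sequences before the starts of MAK16 and ECM16 from the list, and of DRS1, which is not in it but has a related role and the lowest value of all genes, are shown because they carry side by side the elements known for this gene group, PAC (GATGAG) and RRPE (AAAATTTT), which are bound by Dot6 and Tod6 and by Stb3. They are bases 250 to 101 before the annotated gene start in RefSeq's R64 assembly, written 5′ to 3′ on the gene's strand, with matches to PAC and RRPE in capitals. DRS1 lies at chrXII:131479-131628 on the plus strand, MAK16 at chrI:101246-101395 on the minus strand and ECM16 at chrXIII:523446-523595 on the plus strand.
DRS1: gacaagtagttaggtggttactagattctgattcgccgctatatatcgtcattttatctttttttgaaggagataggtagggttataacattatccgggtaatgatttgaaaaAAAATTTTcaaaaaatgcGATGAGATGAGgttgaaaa
MAK16: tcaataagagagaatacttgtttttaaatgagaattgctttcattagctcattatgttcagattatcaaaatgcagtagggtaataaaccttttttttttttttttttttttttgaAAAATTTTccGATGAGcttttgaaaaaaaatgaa
ECM16: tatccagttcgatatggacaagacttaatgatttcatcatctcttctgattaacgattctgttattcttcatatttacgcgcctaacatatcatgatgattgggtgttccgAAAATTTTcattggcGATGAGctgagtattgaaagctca

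DRS1, a nucleolar helicase of large subunit assembly, was at 105, 83.2, 73.4 and 91.0 RPM in the earlier window, in order of time, and at 53.4, 14.6 and 29.5 RPM in the later one. All 3 later libraries lay under all 4 earlier ones, and the lowest came at 195 min. DRS1 fell by 1.62 in log2 (SE 0.34, adjusted p = 0.0219 by limma), the largest fall of any gene tested, and stood at -1.85 scaled. MAK16, a nuclear factor of large subunit assembly, was at 159, 146, 131 and 125 RPM and then at 83.3, 44.4 and 42.8 RPM. The windows did not overlap, and it fell by 1.37 in log2 (SE 0.22, adjusted p = 0.0219 by limma). ECM16, a helicase of 18S rRNA processing, stood at 70.5 to 85.0 RPM in the earlier window and at 39.3, 31.4 and 29.5 RPM in the later one, so that most of its fall was in place by 180 min. It fell by 1.25 (SE 0.17). REI1, a cytoplasmic factor of large subunit maturation, fell by 1.47 (SE 0.33), UTP4, of the small subunit processome, fell by 1.37 (SE 0.33) and RPF2, which helps load the 5S particle, fell by 1.28 (SE 0.30). DRS1, ECM16, REI1 and UTP4 rest on as few as 19, 20, 16 and 11 reads in a library, so their counting error is large. ESF1, at 0.03, and UTP6, at -0.04, stood at the other end of the list and were named after their values were seen.

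RNA polymerases I and III make the rRNA and the tRNA. Of 23 tested subunits and initiation factors 13 fell as deposited and 20 scaled, with medians of -0.75 and -0.98. RPA190, which encodes polymerase I's largest subunit, was at 311, 280, 216 and 244 RPM and then at 187, 108 and 94.4 RPM, without overlap. It fell by 1.07 in log2 (SE 0.21, adjusted p = 0.0219 by limma). The RNA polymerase III subunit genes RPC31 and RPC53 fell by 0.88 (SE 0.19) and 0.75 (SE 0.16). Genes for enzymes of ribose phosphate and nucleotide making, and for a factor of rRNA and snoRNA maturation, were also among the 10 largest falls. RKI1, ribose-5-phosphate isomerase, fell by 1.44 (SE 0.27), URA7, CTP synthase, fell by 1.28 (SE 0.24) and PXR1, which acts in rRNA and snoRNA maturation, fell by 1.27 (SE 0.24).

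The elements were counted in the 250 bases before every annotated protein-coding gene start, on both strands. PAC and RRPE cannot overlap each other, and PAC can share its last bases with the stress element AGGGG. PAC was in 17% and RRPE in 8.65% of 6001 promoters, and in 89 (93.7%) and 81 (85.3%) of the 95 tested ribosome biogenesis genes. Of the 23 polymerase genes 19 had PAC and 13 had RRPE. Ribosomal protein promoters held PAC in 14 (10.1%) and RRPE in 9 (6.52%) of 138. Such gene groups are in part known through these elements, so the shares describe the lists. Outside both lists 142 tested genes had both elements, of which 46 fell (32.4%, with a median log2 change of -0.41), against 108 of 3624 genes with neither (2.98%, median 0.22). Scaled, 62 and 164 of them fell. The 142 genes include DRS1, so genes with a role in ribosome assembly remain among them. The 3624 include most ribosomal protein genes, a list in which 103 of 138 fell as deposited. A match is a description of the letters and not a bound site.

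Cytosolic ribosomal protein genes encode the building blocks of the ribosome. Of 138 members, all tested, 103 fell as deposited and 114 scaled, with medians of -0.87 and -1.10, and 131 had windows that did not overlap, set against the 9.49% of all genes. None rose by limma, also at an unadjusted p under 0.05. RPL22B, a large subunit protein gene, was at 340, 317, 298 and 256 RPM and then at 198, 129 and 70.8 RPM. Its values were lower at each later time, including within the earlier window, and it fell by 1.31 in log2 (SE 0.26, adjusted p = 0.0219 by limma). RPS24B fell by 1.35 (SE 0.30), RPL36A by 1.04 (SE 0.22) and RPS7B by 0.96 (SE 0.20), and these 3 have fractional reads, a sign of reads shared with other genes, as do 108 of the 138. RPL15B, at 0.03, was the member with the highest value and is also among them.

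**Figure D3:**
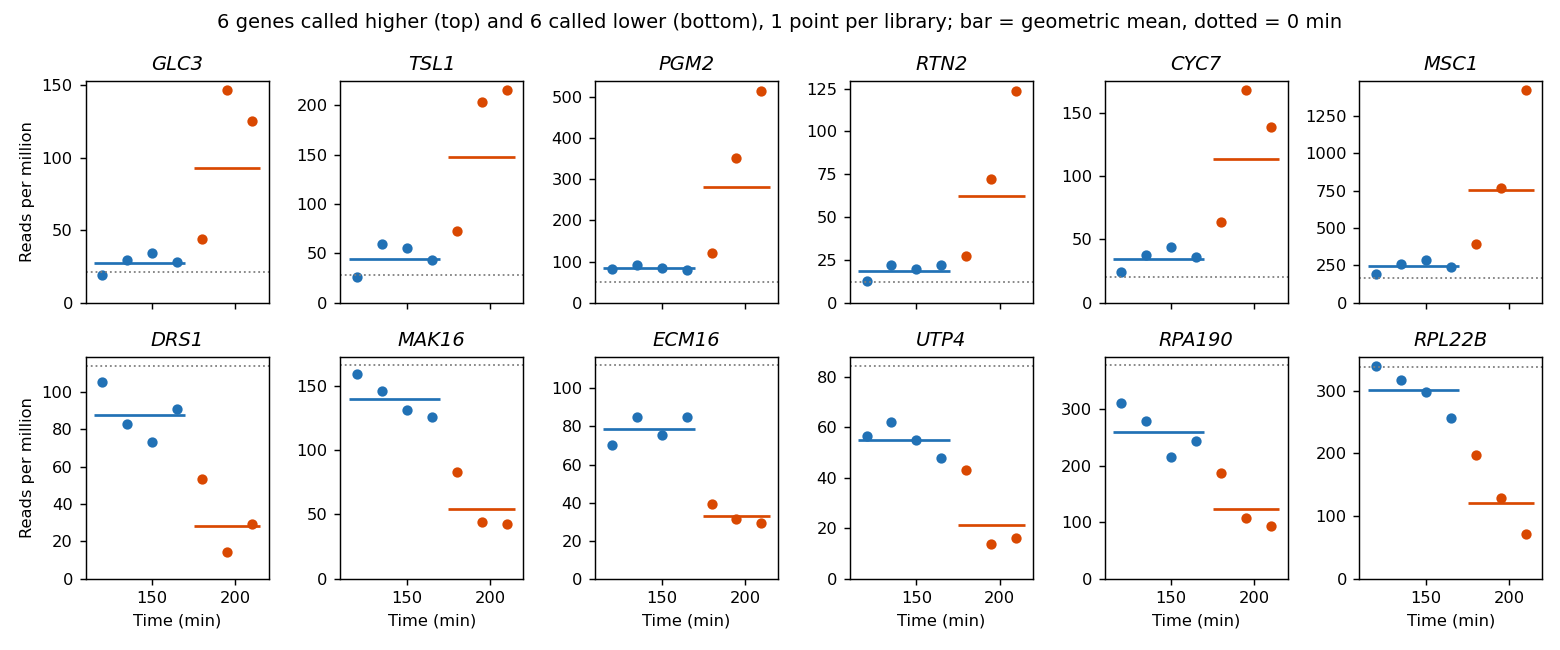
RPM (y axis, from 0) of 6 genes called higher and 6 called lower, 1 point per library, by minutes without phosphate (x axis); blue is 120 to 165 min, orange 180 to 210 min, bars are geometric means and the dotted line is the 0 min library. GLC3 reached 146 RPM at 195 min, when DRS1 had its lowest value of 14.6 RPM.

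The medians of assembly factor and ribosomal protein genes took different courses in the later window. The median ribosome biogenesis gene lay at -0.24, -1.17 and -1.16 from its earlier mean at 180, 195 and 210 min, and the median ribosomal protein gene at -0.33, -0.72 and -1.52. From 180 to 195 min 95 of 95 ribosome biogenesis genes and 137 of 138 ribosomal protein genes were lower. From 195 to 210 min 137 of 138 ribosomal protein genes were lower again, with a median step of -0.83, against 48 of 95 ribosome biogenesis genes, with a median step of -0.01. Scaled, 59 of 95 ribosome biogenesis genes were lower at 210 than at 195 min, with a median step of -0.16, and 137 ribosomal protein genes, with -0.97. Of all 4742 genes tested, 2970 were higher at 210 than at 195 min as deposited and 2135 scaled. Each of these times is 1 library, so the order was not tested. The ribosome biogenesis median also moved between neighbouring libraries elsewhere, from -1.55 at 225 min to -0.93 at 240 min.

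**Figure D4:**
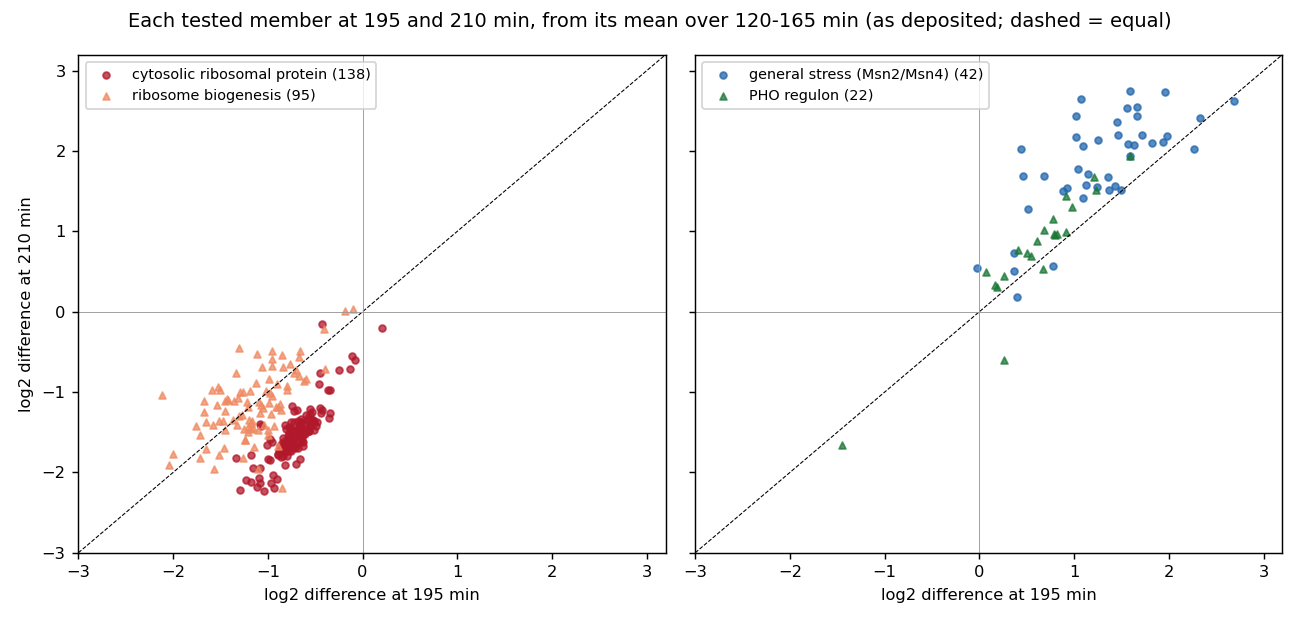
Log2 difference of each tested list member from its 120 to 165 min mean at 195 min (x axis) and at 210 min (y axis), as deposited, with the dashed line marking equal values. Ribosomal protein genes lie under the line in 137 of 138 cases and ribosome biogenesis genes in 48 of 95, while 38 of 42 stress genes lie above it (33 scaled). Of all 4742 genes tested, 2970 were higher at 210 than at 195 min as deposited.

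Translation factors and aminoacyl-tRNA synthetases are the machinery that works with ribosomes. Of 38 translation factor genes 2 fell as deposited, a share below the 6.54% of all genes, and 10 scaled, with a median of -0.32. RPG1, a subunit of initiation factor eIF3, was at 298 to 322 RPM in the earlier window and at 245, 168 and 195 RPM in the later one, without overlap, and it fell by 0.63 (SE 0.14). None of 21 aminoacyl-tRNA synthetase genes passed by limma as deposited, where 8 were lower at an unadjusted p under 0.05, and 5 fell scaled, among them the phenylalanyl and glutaminyl enzymes FRS1 (-0.72 scaled) and GLN4 (-0.79 scaled). Of 14 regulators of ribosome genes, MAF1, the repressor of RNA polymerase III, rose by 0.81 (SE 0.20) and IFH1, a coactivator of ribosomal protein genes, fell by 0.69 (SE 0.21). MAF1 did not pass scaled (0.58, adjusted p = 0.0539 by limma), while IFH1 did (-0.92). FHL1, SFP1 and RAP1, which act at ribosomal protein genes, were at -0.18, 0.02 and 0.11.

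Genes for storing carbohydrate were among the largest rises. Of 18 tested trehalose and glycogen genes 12 rose as deposited and 10 scaled, where the median was 0.85. For 3 of them the same stretch before the gene start is shown, with the stress response element STRE (AGGGG), the site of Msn2 and Msn4, in capitals. GLC3 lies at chrV:132870-133019 on the plus strand, PGM2 at chrXIII:477707-477856 on the minus strand and TSL1 at chrXIII:70374-70523 on the plus strand.
GLC3: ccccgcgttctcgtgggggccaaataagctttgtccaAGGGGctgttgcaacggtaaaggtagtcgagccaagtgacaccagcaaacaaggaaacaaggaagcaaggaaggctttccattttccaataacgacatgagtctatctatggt
PGM2: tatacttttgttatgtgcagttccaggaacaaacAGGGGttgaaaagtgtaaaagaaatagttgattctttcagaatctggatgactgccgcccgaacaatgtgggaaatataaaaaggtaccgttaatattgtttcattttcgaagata
TSL1: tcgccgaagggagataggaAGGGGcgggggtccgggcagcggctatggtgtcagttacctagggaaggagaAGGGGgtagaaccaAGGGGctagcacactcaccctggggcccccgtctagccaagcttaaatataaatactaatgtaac

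GLC3, the glycogen branching enzyme, was at 19.1, 29.2, 34.5 and 28.1 RPM in the earlier window and at 44.0, 146 and 125 RPM in the later one. The windows did not overlap and the step came between 180 and 195 min. GLC3 rose by 1.78 on the log2 scale, or 3.43-fold (SE 0.36 in log2, adjusted p = 0.0219 by limma), and scaled by 1.55. PGM2, the main phosphoglucomutase, was at 79.8 to 90.5 RPM in the earlier window and then at 122, 352 and 515 RPM. It rose by 1.74 (SE 0.36, adjusted p = 0.0219 by limma), with no overlap. TSL1, a subunit of the trehalose synthase complex, was at 26.5, 59.4, 55.6 and 43.7 RPM and then at 73.0, 204 and 215 RPM, and rose by 1.74 (SE 0.36). GPH1, glycogen phosphorylase, which breaks glycogen down, rose by 1.55 (SE 0.31), and UGP1, which makes UDP-glucose, rose by 1.26 (SE 0.24). Genes that make and genes that break down these reserves were thus both among the rises.

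Of 42 tested general stress genes, which Msn2 and Msn4 activate, 27 rose as deposited and 20 scaled, where the median was 0.89. RTN2, a reticulon-like protein gene, was at 12.4, 21.9, 19.8 and 21.9 RPM and then at 27.1, 72.0 and 124 RPM. All later values were above all earlier ones, and RTN2 rose by 1.75 (SE 0.41, adjusted p = 0.0226 by limma). MSC1 was at 194 to 287 RPM and then at 391, 768 and 1422 RPM, and rose by 1.63 (SE 0.32). STF2, a desiccation tolerance protein gene, rose by 1.61 (SE 0.32) and DCS2, a relative of the scavenger decapping enzyme, by 1.57 (SE 0.31). YFR052C-A, which the annotation used here does not name, rose by 1.56 (SE 0.36). RGI1 had the largest change of all, 1.86, but its 180 min value of 30.9 RPM lay among the earlier ones, which reached 33.8 RPM. YGP1, at 0.05, and GRE2, at 0.19, were the members with the lowest values.

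STRE was in 18.8% of the 6001 promoters and in 28 (66.7%) of the 42 tested stress genes. It was in 77 (57.9%) of the 133 genes called higher on both scales that have an annotated start. Among all tested genes with a promoter, 39 of 109 with at least 2 matches rose (35.8%), 127 of 786 with 1 match (16.2%) and 192 of 3753 with none (5.12%). Scaled, 21, 56 and 56 of these rose. Outside the stress and carbohydrate lists, 29 of 95 genes with at least 2 matches rose as deposited (30.5%) and 12 scaled.

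Several enzymes of sugar metabolism and respiration exist as isozymes. Within a library the ratio of 2 genes does not depend on the scaling, so 20 pairs of isozymes and related proteins were compared by their log2 ratio, and 19 were listed in all 7 libraries. The pairs, and which gene is named first, were written after the single values were known, so the ratios are a description with no test and no count over pairs is read. HXK1 against HXK2, the hexokinases, had log2 ratios of -1.24, -0.97, -0.57 and -0.72 and then -0.50, 0.98 and 1.41, so that HXK1 had more reads than HXK2 from 195 min on. HXK1 rose by 1.55, while HXK2, the main hexokinase on glucose, was at 0.05.

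The other pairs come from sugar metabolism, respiration and chaperones. GND2 against GND1, of the pentose phosphate pathway, changed by 1.67 in log2 ratio, with the 180 min value inside the earlier range, and by 0.95 without the 210 min library. SOL4 against SOL3 changed by 1.35 with no overlap, CYC7 against CYC1, the cytochromes c, by 1.37 and COX5B against COX5A, isoforms of a cytochrome oxidase subunit, by 0.83, both with no overlap. TDH1 against TDH3 and ENO1 against ENO2 changed by 0.89 and 0.81, but these pairs hold shared reads. GPM2 and PYK2, the minor phosphoglycerate mutase and pyruvate kinase genes, gained 0.64 and 0.62 on GPM1 and CDC19, with overlap. ADH2 against ADH1, also a pair with shared reads, stood at -0.15 (-0.33 to -0.02 without 1 library) and ACS1 against ACS2 at -0.33 (-0.58 to 0.02). GND2 itself rose by 1.57 (SE 0.42), SOL4 by 1.53 (SE 0.27), CYC7 by 1.72 (SE 0.31) and COX5B by 1.02 (SE 0.17).

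The list of glycolysis and fermentation genes took a growing share of the reads. Ribosomal protein genes fell from 34.5% of reads at 120 min to 12.1% at 210 min, which raises every other share. The glycolysis and fermentation genes held 7.08% of the 120 min reads, and 9.23, 10.9 and 13.8% of those of 165, 195 and 210 min. Of 26 tested members 8 rose as deposited and 6 scaled, with medians of 0.50 and 0.27. GLK1, glucokinase, rose by 1.41 (SE 0.29), from 143 to 261 RPM in the earlier window to 315, 657 and 821 RPM. Its windows did not overlap.

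Mitochondrial genes supply the cell's respiratory energy. Among respiratory chain and ATP synthase genes 10 of 38 rose as deposited and 3 scaled, with medians of 0.43 and 0.21, and of 18 TCA cycle genes 5 and 1. MDH1, mitochondrial malate dehydrogenase, rose by 0.96 (SE 0.18) and also scaled, while SDH4, a succinate dehydrogenase subunit, at 0.72 (SE 0.16), and QCR10, of cytochrome bc1, at 0.71 (SE 0.14), rose only as deposited. Peroxide defence genes rose in 8 of 23 cases, and in 1 scaled, which was PRX1, the mitochondrial peroxiredoxin, at 1.06 (SE 0.21). Of 30 Hsp70 and Hsp90 chaperone genes 5 rose, led in the test statistic by SSE2 (1.06, SE 0.22), and scaled 3 rose and 3 fell.

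Vacuolar proteases, autophagy and nitrogen scavenging recycle the cell's contents. Of 13 vacuolar protease and inhibitor genes 10 rose as deposited and 5 scaled, with a median of 0.83. All 13 were higher at 210 than at 195 min on both scales, against 62.6% of all genes tested as deposited. PEP4, proteinase A, was at 285, 369, 365 and 378 RPM and then at 459, 617 and 883 RPM, with no overlap, and rose by 0.86 (SE 0.20, adjusted p = 0.0223 by limma). PBI2, an inhibitor of proteinase B, rose by 1.19 (SE 0.26) and YBR139W, a vacuolar carboxypeptidase, by 0.85 (SE 0.17). Of 21 autophagy genes 7 rose as deposited and 2 scaled, among them ATG33, of mitophagy, at 0.95 (SE 0.19) and ATG19, a receptor for vacuolar enzymes, at 0.90 (SE 0.23), the second not scaled. Among genes under nitrogen catabolite repression 4 of 20 rose and 1 did scaled, with GAP1, the general amino acid permease, at 61.4 to 77.3 RPM and then at 96.4, 139 and 298 RPM. It rose by 1.23 (SE 0.29).

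The median PHO gene had its larger step before this interval. The median of the 22 tested members of 25 changed by 1.38 from 75 to 105 min to 120 to 165 min, by 0.63 here and by 0.31 from here to 225 to 255 min. These steps share libraries with one another and are given as values. As deposited 11 rose and 1 fell, and scaled 5 rose and 1 fell, with a median of 0.41. The fall was PHO3, and the list also holds VIP1, the gene labelled deleted. Whether each member is under Pho4 was not tested, so the median is that of the list as written. PHM8, a nucleotidase, was at 106, 203, 231 and 276 RPM and then at 383, 580 and 736 RPM, higher at each time, and rose by 1.51 (SE 0.29, adjusted p = 0.0219 by limma). PHO5, the main secreted acid phosphatase, was at 822, 1083, 1510 and 2131 RPM and then at 2808, 3052 and 3709 RPM, and rose by 1.28 (SE 0.27). PHM6 (1.30, SE 0.24), HOR2, a glycerol-3-phosphatase (0.95, SE 0.20), and GDE1, which cleaves glycerophosphocholine (0.87, SE 0.17), also rose on both scales.

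Several PHO genes rose only as deposited. They were PHO89, a sodium-coupled phosphate transporter (1.09, SE 0.28), PHO11 (0.91, SE 0.23) and PHO12 (0.85, SE 0.20), both acid phosphatases that share reads, DDP1, a diphosphoinositol phosphatase (0.74, SE 0.18), PHO8, the vacuolar alkaline phosphatase (0.73, SE 0.17), and KCS1, the other inositol pyrophosphate kinase (0.67, SE 0.21). PHO84, the high-affinity transporter, was at 598, 672, 739 and 964 RPM and then at 988, 973 and 1251 RPM. Its windows did not overlap, but the 165 and 195 min values were close, and its change of 0.54 (SE 0.17, adjusted p = 0.0504 by limma) did not pass. SPL2, a regulator of low-affinity uptake, at 0.59 (adjusted p = 0.0573 by limma), did not pass either.

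The polyphosphate polymerase subunit genes VTC1 and VTC4, at 0.579 and 0.576, lay just under the required size, and VTC2 and VTC3 were at 0.35 and 0.29. PHO81, the inhibitor of the Pho80 and Pho85 kinase, was at 0.25, PHO86 at 0.27, PPN1, a polyphosphatase, at 0.47 and VIP1 at -0.34, and none of these passed. PHO3, the acid phosphatase gene next to PHO5, fell by 1.20 (SE 0.24), from 139 to 187 RPM to 113, 58.4 and 50.4 RPM. It is among the 4 of 22 tested PHO list members that share reads. GIT1 and PHM7 were listed in some of the 7 libraries and CTF19 was not analysed here. Of 14 pathway regulators and low-affinity carriers, PLC1, phospholipase C, rose by 0.60 (SE 0.18) but not scaled, and GDE1 is also in that list. PHO4, PHO85 and PHO80 were at 0.28, 0.44 and -0.13.

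**Figure D5:**
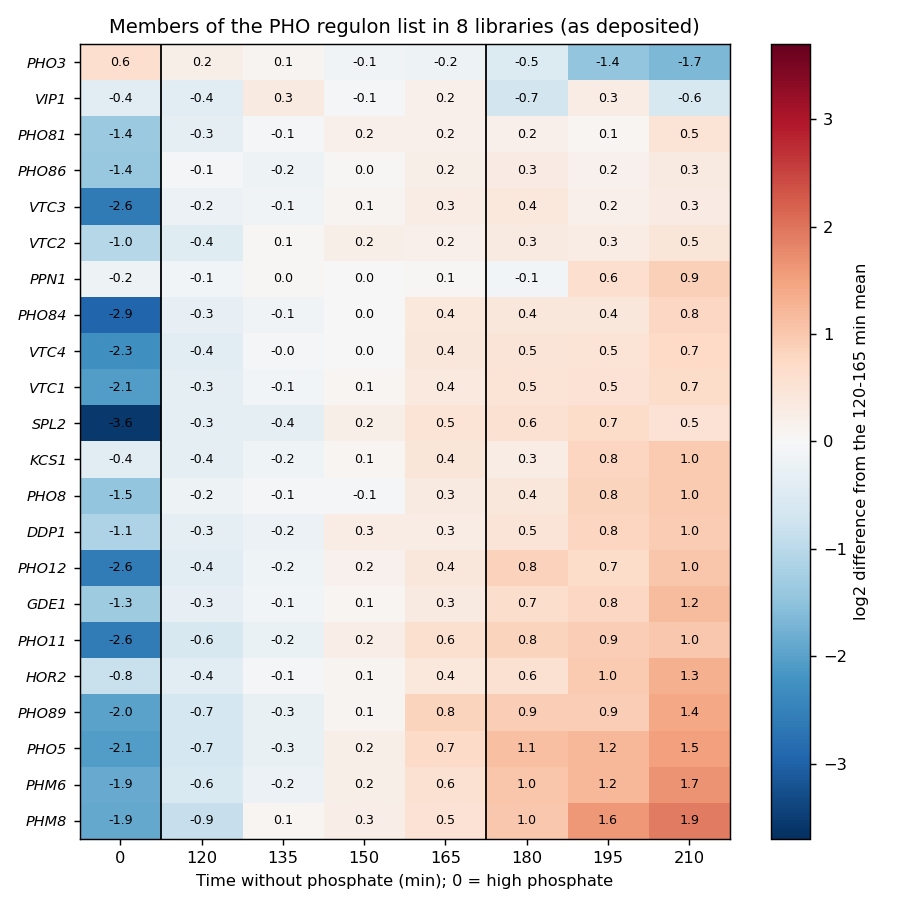
Log2 difference of the 22 tested PHO list members from their 120 to 165 min mean (colour and printed value), in the 0 min library and the 7 compared libraries, as deposited. PHM8, with a change of 1.51 between windows, is at the bottom and PHO3, with -1.20, at the top.

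Nucleotide genes went both ways. Of 12 pyrimidine genes 4 fell, with URA1, dihydroorotate dehydrogenase, at -0.81 (SE 0.22) and URK1, uridine kinase, at -0.95 (SE 0.27), while of 26 purine and one-carbon genes 1 rose and 4 fell. ADE17, of purine synthesis, was the rise (0.88, SE 0.22), and APT1, which salvages adenine, fell by 0.75 (SE 0.16) and IMD4, an IMP dehydrogenase gene that shares reads, by 0.96 (SE 0.22). Of 27 phospholipid and inositol genes 2 rose as deposited, near the 7.68% of all genes, and 1 scaled. Their median was 0.17, against 0.18 for all genes. OPI3, of phosphatidylcholine synthesis, rose by 0.97 (SE 0.22) and INO4, a regulator of phospholipid genes, by 0.74 (SE 0.14), the latter not scaled. Of 15 fatty acid genes 1 fell as deposited, near the 6.54% of all genes, and 4 scaled, where 9.32% of all genes fell. FAA4, an acyl-CoA synthetase, fell by 0.76 (SE 0.20). Of 16 tested Ras and protein kinase A genes 3 rose and 0 fell as deposited, against 7.68% and 6.54% of all genes. Scaled, 1 rose and 1 fell, and the changes as deposited ran from -0.52 to 1.21. BCY1, the regulatory subunit of protein kinase A, rose by 0.64 (SE 0.20), but not scaled.

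Some programs showed few or no calls. Of all genes tested 14.2% were called either way, so lists of 11 to 19 genes would hold few calls at that share. Lists of 33, 35 and 65 genes would hold more. Whether these lists differ from it was not tested. By limma 0 of 33 proteasome genes, 0 of 19 cyclin and inhibitor genes, 0 of 15 vacuolar proton pump genes, 0 of 16 mating genes and 0 of 14 iron genes were called, with 11, 3, 5, 2 and 5 of them past an unadjusted p under 0.05. Of 35 DNA replication genes 1 rose, CDC21, thymidylate synthase (0.63, SE 0.15), and of 11 histone genes 1, the linker histone gene HHO1 (0.85, SE 0.21). Mitochondrial ribosomal protein genes had a median of 0.13, with 3 of 65 higher, against the -0.87 of their cytosolic counterparts.

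The pace of change was set against the intervals on either side, in 13 libraries from 75 to 255 min, with 4731 genes tested. The earlier step, from 75 to 105 to 120 to 165 min, spans 52.5 min between window centres, as does this one, and the later step spans 45 min. The median steps before, here and after were -0.22, -0.87 and -1.63 for ribosomal protein genes, -0.07, -0.89 and -0.36 for ribosome biogenesis genes, 0.20, 1.12 and 1.16 for stress genes and 0.24, 1.08 and 0.63 for trehalose and glycogen genes. No gene passed limma's test of a different pace from the interval before (0% of 4731), where 561 had an unadjusted p under 0.05 and the lowest adjusted p was 0.147. Without the 180 min library 222 genes passed upward and 296 downward, so that result turns on this library, and without the 120 min library 1 passed downward. Against the interval after, CTR86 and PUS1, a pseudouridine synthase of tRNA, passed (0.0423%, adjusted p = 0.0366 by limma each). Both were lower here, by -0.98 and -0.85, and higher again after, by 1.17 and 0.85. Neither passed without the 120, 135, 165, 195, 240 or 255 min library. Without the 180 min library 117 genes passed upward and 62 downward, and without the 210 min library 23 and 133. A step beyond a straight line in time was called for no gene by limma, with 42 at an unadjusted p under 0.05.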

How the data were processed

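RNA-seq reads were aligned with Bowtie to R64, per the submitters' processing notes. The sources used here do not give the counter, the annotation or the strand setting. What the authors deposited is log2 RPM, since the antilogs of each library sum to 1000000. Taking each library's lowest value as 10 reads made 94.1% of values whole to within 0.01, and this gave the depths. Values under 10 reads are blank and were left missing, and no pseudocount was used. A count test was not run, since these reads lack all values under the floor. Of 6701 rows 51 had no name and held no value. Genes whose reads are mostly fractional (343) are called genes that share reads, and their partners were not traced.

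Windows were compared by limma 3.58.1 (R 4.3.3), allowing a variance trend, with 5 residual degrees of freedom (median residual SD 0.24). Means are geometric and SE is limma's. The pace tests used 4 window means over 13 libraries. The members and the 47 gene lists were chosen with earlier results of these data known. Genes named are the 10 largest rises and falls called on both scales with windows that do not overlap, the PHO list, and the 3 members of each other list with the largest statistic, some left out. Others are named as ends of a list, as partners in a pair or as known regulators, after their values were seen. Alternatives were other scalings, filters, weights, thresholds, a 13-library fit, a straight line in time and each library left out. Names matched R64 for 5498 genes. Sequences and motif counts come from RefSeq's R64 assembly and annotation, and Python 3.11.15 and matplotlib 3.10.9 drew the figures.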

Additional observations from a re-analysis of the deposited data

Results flagged for a closer look

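In the 4 libraries of 120 to 165 min, 93 named genes and 45 list medians were checked for a library far from the other 3, using Dixon's ratio of the gap to the range and its 95% critical value for 4 samples. PEP4 at 120 min, at 285.3 RPM against 364.6 to 378.1 RPM, was the only gene past it (ratio 0.871). Among list medians, taken as log2 differences from the window mean, 4 were past it. The mating list stood at 0.0951 at 165 min (others -0.0291 to -0.0161), the sulfate list at 0.0769 at 165 min (others -0.0384 to -0.0214), the translation factor list at -0.08 at 150 min (others 0.0293 to 0.0425) and the vacuolar proton pump list at 0.0567 at 120 min (others -0.0316 to -0.0171). The check marks about 5% of groups by chance. No cause was tested.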

How the results depend on the processing

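Counts of genes that rose and fell were 364 and 310. They were 136 and 442 scaled over other genes, 194 and 378 with libraries centred on their medians, 642 and 452 with array weights, 113 and 82 with a minimum change of 1, and 0 and 0 with a straight line in time as a covariate, which removes most of the difference between 2 neighbouring windows. Filters, robust estimation, precision weights, no minimum change and the 13-library fit moved both counts by less than 1.5 times, as did a slope over time and an adjusted p under 0.10, which were chosen after seeing the data. Leaving out each library in turn gave 0 to 779 higher and 0 to 463 lower, 0 to 222 and 0 to 296 for the pace against the interval before, and 0 to 117 and 0 to 133 for the pace against the interval after. The pace counts kept within 1.5 times under both other scalings. The 4 list medians of ribosomal protein, ribosome biogenesis, stress and PHO genes kept their sign in every setting, except PHO with the straight line, and without 1 library they ranged from -1.12 to -0.528 (ribosomal protein), -1.231 to -0.6805 (ribosome biogenesis), 0.815 to 1.58 (stress) and 0.517 to 0.799 (PHO). With the straight line they were -0.0094 (ribosomal protein), -0.258 (ribosome biogenesis), 0.202 (stress) and -0.103 (PHO). With it these genes also changed sign, none past the test: GND2 -0.0072, DDP1 -0.0756, HOR2 -0.0727, KCS1 -0.339, PHM8 -0.0473, PHO11 -0.169, PHO5 -0.0679, PHO81 -0.349, PHO84 -0.182, PHO86 -0.0288, PHO89 -0.386, PPN1 -0.112, SPL2 -0.16, VTC1 -0.0782, VTC2 -0.221, VTC3 -0.0931, VTC4 -0.166, PLC1 -0.0854, OPI3 -0.0693, ADE17 -0.193, BCY1 -0.153, PBI2 -0.0229, TAT1 0.122 and URA1 0.0666. VIP1 stood at 0.108 with array weights. Of the other settings for 93 named genes 1071 kept the call and direction, 457 lost the call and 23 gained it, and causes were not tested. No paired analysis was possible because each time has 1 library and replicate numbers follow the order of the times. At 210 min a gene needs 14.7 RPM to be listed, so falls of low genes are missed, and 3 consecutive times of 1 culture cannot tell time from the state of single libraries.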
